A study of Mus musculus with 13 samples.

Results

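Krt7, Krt8, Krt18, Krt19, Krt20 and Vim, 5 keratin genes of simple epithelia and the vimentin gene, were taken by name from the gene tables of an RNA-seq study of mouse polycystic kidneys and of a kidney cell line. All 6 were among the 28183 genes of the kidney table, and 1 of them, Vim, was among the 2016 genes of the cell table. The other 5 were not analysed in the cells. The series asks how the long noncoding RNA Hoxb3os is altered in polycystic kidney disease. Pkd1 knockout kidneys came from KSP/Cre+;Pkd1f/f mice at postnatal day 10 and their controls from KSP/Cre-;Pkd1f/f mice of that age. Pkd2 knockout kidneys came from Pkhd1/Cre+;Pkd2f/f mice at postnatal day 20, with Pkhd1/Cre-;Pkd2f/f mice as controls. All mice were C57BL/6, every control kept its floxed alleles, and each of the 4 groups had 2 libraries. KSP/Cre is driven by the promoter of kidney-specific cadherin in tubule epithelium and Pkhd1/Cre by that of Pkhd1, mainly in collecting ducts, so whole kidneys also held cells in which Cre does not act. The gene deleted, the Cre line and the age differ together between the models. The cells were mIMCD-3, a line of the inner medullary collecting duct, transfected by lipofection with a gapmer against Hoxb3os (3 libraries) or a control gapmer (2 libraries). A gapmer is an antisense oligonucleotide that directs cleavage of the RNA it binds. It was given at 10 nM for 48 hours. Since nothing in the labels ties a replicate to its own animal or culture, the p-values here reflect scatter among libraries that could in part be technical. Sex-linked RNA, given below, differed between the 2 Pkd2 knockouts and between the 2 Pkd1 controls. Neither of these pairs can come from a single animal, while for the other groups purely technical scatter is possible.

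Intermediate filaments are the rope-like fibres that give cells mechanical strength. Keratin filaments form only when a type II keratin pairs with a type I keratin, and an unpaired keratin protein is degraded; KRT8 with KRT18 is the basic pair of simple epithelia, while KRT7 and KRT19 are added in ducts. In the kidney these keratins are known from collecting ducts, Krt20 from the superficial cells of the urothelium and from injured tubules, and vimentin, a type III protein that assembles with itself, from mesenchyme, endothelium, podocytes and tubule cells under repair.

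Krt7 (ENSMUSG00000023039) lies on chr15:101411043-101430313 of mm10 on the plus strand, Krt8 (ENSMUSG00000049382) on chr15:101996711-102004342 on the minus strand, and Krt18 (ENSMUSG00000023043) on chr15:102028216-102032026 on the plus strand. Krt8 and Krt18, partners in the filament, are neighbours that start 23.9 kb apart and are read away from each other. Krt19 (ENSMUSG00000020911, chr11:100140810-100148665) and Krt20 (ENSMUSG00000035775, chr11:99428403-99438150) are both on the minus strand of the type I keratin cluster. Vim (ENSMUSG00000026728) lies on chr2:13573927-13582826 on the plus strand. All are annotated as protein coding. Processed pseudogenes resemble the mRNAs of Krt8 (Krt8-ps, 98.6% identity over 941 bases) and Krt18 (Gm5200, 90.5% over 1267 bases). Neither had a value in the table used here, so how reads were divided between them and the genes is uncertain.

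The promoter table of RefSeq (build GRCm38.p6) held 5 of the 6 members, and no entry was matched for Krt19. The promoters of the neighbouring partners Krt8 and Krt18 and that of Krt20, the member with the largest ratio in the Pkd2 model, are printed 5′ to 3′ from 250 bases before to 10 bases after the annotated start. Capitals mark matches to TATAAA (the box of that name near many starts), CAGGTG (an E-box), GGGCGG (GC box), CCAAT or TGANTCA (AP-1) on either strand.
Krt8, GRCm38.p6 chr15:102004333-102004592, minus strand: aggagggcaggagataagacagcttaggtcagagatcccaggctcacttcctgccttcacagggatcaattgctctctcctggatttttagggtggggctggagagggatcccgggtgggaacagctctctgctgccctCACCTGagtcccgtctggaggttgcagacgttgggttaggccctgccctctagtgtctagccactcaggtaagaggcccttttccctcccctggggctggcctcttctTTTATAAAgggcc
Krt18, GRCm38.p6 chr15:102027966-102028225, plus strand: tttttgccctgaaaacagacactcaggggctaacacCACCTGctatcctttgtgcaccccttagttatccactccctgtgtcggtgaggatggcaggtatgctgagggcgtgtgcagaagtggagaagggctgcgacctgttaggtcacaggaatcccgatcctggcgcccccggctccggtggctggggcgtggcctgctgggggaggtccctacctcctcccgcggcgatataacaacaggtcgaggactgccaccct
Krt20, GRCm38.p6 chr11:99438144-99438403, minus strand: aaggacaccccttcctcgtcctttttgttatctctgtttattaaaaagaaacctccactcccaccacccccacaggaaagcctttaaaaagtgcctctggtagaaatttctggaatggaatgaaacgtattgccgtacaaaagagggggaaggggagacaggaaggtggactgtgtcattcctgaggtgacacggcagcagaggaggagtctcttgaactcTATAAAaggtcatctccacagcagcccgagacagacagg
The Krt8 and Krt18 windows each held an E-box match, beginning 111 and 214 bases before the start. In Krt8 overlapping TATAAA matches on both strands run across the annotated start. In Krt20 TATAAA begins 29 bases before the start. Searched over the full window of 300 bases, Krt7 had 4 GC box matches and 1 E-box match and Vim had TATAAA 32 bases before its start and CCAAT on each strand. The AP-1 letters were in 0 of the 5 windows. Of 32851 promoters in the table, 20.2% held the E-box letters, 13.6% TATAAA, 35.7% the GC box, 37.4% CCAAT and 7.81% AP-1. A match of these letters is no evidence of binding.

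The kidney libraries held 30658299 to 94428976 reads, recovered from the steps between low values. Values are given on the deposited scale, reads per gene scaled per library to sums of 708894 to 1289910, without division by gene length. Mitochondrially encoded RNA made up 22.0% and 22.5% of the values in Pkd1 knockouts and 27.4% and 38.7% in Pkd1 controls, and 34.7% and 30.1% in Pkd2 knockouts and 41.4% and 41.3% in Pkd2 controls, so the share was lower in the knockouts of each model. Small structural RNA made up 6.42% to 29.2%. With both kinds of RNA left out of the scaling, 4 members were called higher in the Pkd1 model and 6 in the Pkd2 model. Over all genes, 874 and 1466 were then called higher. Pkd1 itself had 24.1 and 26.0 in Pkd1 knockouts against 31.1 and 22.7 in their controls, and Pkd2 50.7 and 53.3 in Pkd2 knockouts against 69.0 and 61.2. These gene totals include exons that Cre leaves in place and cells without Cre, so they check the labels only weakly. Sex was not balanced. Summed Y-linked values were 149 and 183 in Pkd1 knockouts and 155 and 10.4 in Pkd1 controls, and 169 and 0.0462 in Pkd2 knockouts and 0.104 and 0.0221 in Pkd2 controls. Xist, the RNA of the inactive X chromosome, had 25.3 and 27.7 in Pkd1 knockouts and 0.221 and 416 in Pkd1 controls, and 1.74 and 449 in Pkd2 knockouts and 346 and 350 in Pkd2 controls. Both Pkd1 knockouts and Pkd1 control replicate 2 thus held Y-linked RNA together with Xist, and whether these libraries mix animals is not stated in the labels. With the Y-linked values as a term in the fit, 5 members were called higher in the Pkd1 model and 6 in the Pkd2 model. Krt20, which passed the filter on low values through knockouts only, was among them in both. Over all genes, 1159 and 1806 were then called higher, against 748 and 1397 without that term.

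Every member had higher values in both knockout libraries than in both controls of its model. Such a separation upward was seen for 29.1% of the 14637 tested genes in the Pkd1 model and 31.9% in the Pkd2 model. By limma with Benjamini-Hochberg adjustment, 4 of the 6 members were called higher in Pkd1 knockouts (adjusted p below 0.05), where 5.11% of tested genes were. All 6 were called higher in Pkd2 knockouts, where 9.54% of tested genes were. Krt20 reached the filter on low values in knockouts only, so the filter itself favoured a difference. Leaving Krt20 aside, the counts were 4 of 5 and 5 of 5. The median log2 fold change of the members was 1.34 in the Pkd1 model and 2.02 in the Pkd2 model, against medians of -0.00 and -0.01 over all tested genes. Without Krt20 it was 1.37 and 1.61. On this scale the type I keratins Krt18 and Krt19 changed most, both in the first 30 genes of each ranking by fold change, and their type II partners changed less.

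**Figure D1:**
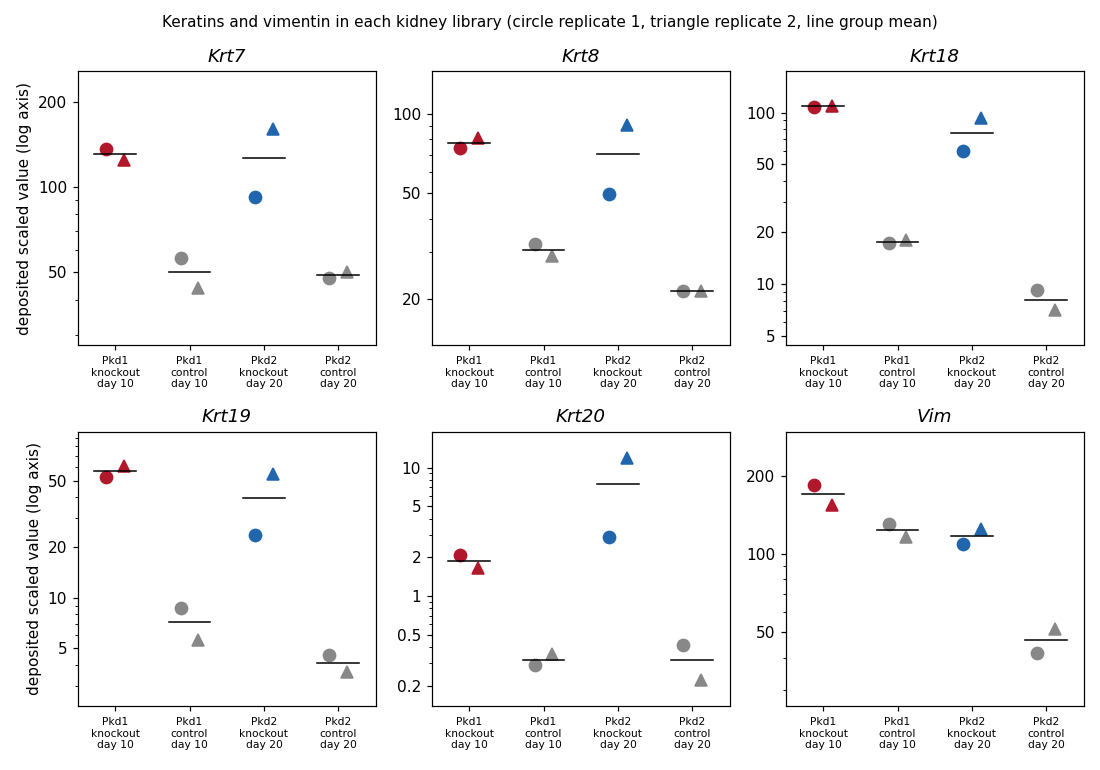
Deposited scaled value of each member in the 8 kidney libraries, on log axes that differ between panels, with knockouts left of controls; circles are replicate 1, triangles replicate 2 and lines group means. For all 6 genes the knockout points lie above the control points of the same model, and for all 6 the second Pkd2 knockout lies above the first.

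Krt7, the type II keratin of ducts, had values of 136.3 and 124.4 in Pkd1 knockouts, against 56.3 and 44.1 in Pkd1 controls. In the Pkd2 model it had 92.2 and 160.5 in knockouts and 47.6 and 50.2 in controls. The control libraries of both ages sat close together, while the Pkd2 knockouts lay far apart without reaching the controls. The log2 fold change of value + 1 was 1.37 ± 0.26 (SE) in the Pkd1 model (adjusted p = 0.0135) and 1.30 ± 0.26 in the Pkd2 model (adjusted p = 0.0117), so Krt7 rose in both. The Pkd1 call was lost without Pkd1 knockout replicate 1, Pkd1 control replicate 1 or Pkd1 control replicate 2 (adjusted p = 0.0726, 0.0602 and 0.0962) and the Pkd2 call without either Pkd2 control (0.0772 without replicate 1, 0.0743 without replicate 2).

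Krt8, the type II keratin found in nearly every simple epithelium, had 73.9 and 80.8 in Pkd1 knockouts and 32.2 and 29.1 in Pkd1 controls. Pkd2 knockouts had 49.6 and 90.8, against 21.3 in both Pkd2 controls. The knockouts of both models overlapped each other in level, while the controls of day 20 lay below those of day 10. Krt8 rose by a log2 fold change of 1.31 ± 0.26 in Pkd1 knockouts (adjusted p = 0.0155) and of 1.61 ± 0.26 in Pkd2 knockouts (adjusted p = 0.00464). Leaving out any of the 4 Pkd1 libraries ended the Pkd1 call of Krt8 (adjusted p 0.0604 without knockout 1, 0.0700 without knockout 2, 0.0886 without control 1 and 0.0962 without control 2), as did testing genes without the filter on low values (0.0587 for Krt8 and 0.0533 for Krt7).

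Krt18, the type I partner of Krt8, had 107.4 and 109.5 in Pkd1 knockouts and 17.4 and 18.0 in Pkd1 controls. In the Pkd2 model, knockouts had 59.3 and 93.1 and controls 9.20 and 7.02. The Pkd1 replicates were nearly alike within each group, and the lowest knockout value of either model was over 3 times the highest control value. The log2 fold change was 2.55 ± 0.23 in the Pkd1 model (adjusted p = 0.00101) and 3.06 ± 0.23 in the Pkd2 model (adjusted p = 0.000325). Among the 14637 tested genes it ranked 25 in both models. Per kilobase of mRNA, and among 13189 protein-coding genes that passed the filter, Krt18 stood at percentiles 97.3 and 97.6 in Pkd1 knockouts and 80.7 and 81.3 in Pkd1 controls, and at 94.8 and 97.6 in Pkd2 knockouts and 64.9 and 58.0 in Pkd2 controls.

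Krt19, a type I keratin of ducts that lacks most of the tail domain, had 52.3 and 61.4 in Pkd1 knockouts and 8.75 and 5.60 in Pkd1 controls. Pkd2 knockouts had 23.9 and 54.6 and Pkd2 controls 4.57 and 3.62. The groups were far apart in both models, even though the Pkd2 knockouts differed from each other more than any other pair of replicates of this gene. Krt19 rose by a log2 fold change of 2.85 ± 0.35 in Pkd1 knockouts (adjusted p = 0.00283, rank 17) and of 2.87 ± 0.35 in Pkd2 knockouts (adjusted p = 0.00171, rank 29). Krt18 and Krt19 kept their calls in both models under each of the 17 alternatives run, the omission of every library in turn among them.

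Krt20, a type I keratin known from urothelial, intestinal and injured tubular epithelium, was the rarest member. It had 2.08 and 1.65 in Pkd1 knockouts, from 120 and 78 reads, and 0.287 and 0.350 in Pkd1 controls, from 35 and 16 reads. In the Pkd2 model knockouts had 2.86 and 11.9, from 102 and 516 reads, against 0.416 and 0.221 in controls, from 16 and 10 reads. Krt20 passed the filter on low values only through the knockouts, whose second Pkd2 library stood well above the other 3. The ratio of group means was 5.86 in the Pkd1 model and 23.2 in the Pkd2 model, but on the log2 scale of value + 1, which understates changes of low genes, the differences were 1.12 ± 0.45 (adjusted p = 0.149, not called) and 2.43 ± 0.45 (adjusted p = 0.00870). With a pseudocount of 0.1 the Pkd1 value of Krt20 was 2.23 and passed the test (adjusted p = 0.0468), as did edgeR (2.55, adjusted p = 0.0411) and DESeq2 (2.57, adjusted p = 0.000196) on recovered reads, each model fitted alone (adjusted p = 0.00866), a term for Y-linked RNA (1.50, adjusted p = 0.0128) and the fits without Pkd2 knockout replicate 1 or 2 (0.00402 and 0.00368). Without Pkd2 knockout replicate 2 the Pkd2 value of Krt20 was 1.55, and without Pkd2 control replicate 2 its call was lost (adjusted p = 0.0657). With recovered reads the Pkd2 value was 4.53 by edgeR and 4.57 by DESeq2, and with a pseudocount of 0.1 it was 3.88.

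Vim, the type III filament gene, had 184.5 and 154.1 in Pkd1 knockouts and 130.7 and 115.8 in Pkd1 controls. Pkd2 knockouts had 109.1 and 124.5 and Pkd2 controls 41.6 and 51.5. Thus the Pkd2 knockouts at day 20 lay at about the level of the Pkd1 controls at day 10. The log2 fold change was 0.45 ± 0.19 in the Pkd1 model (adjusted p = 0.168, not called) and 1.31 ± 0.19 in the Pkd2 model (adjusted p = 0.00340), where Vim rose. Under all 17 alternatives the Pkd1 difference stayed above the threshold, with adjusted p between 0.117 and 0.499.

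**Figure D2:**
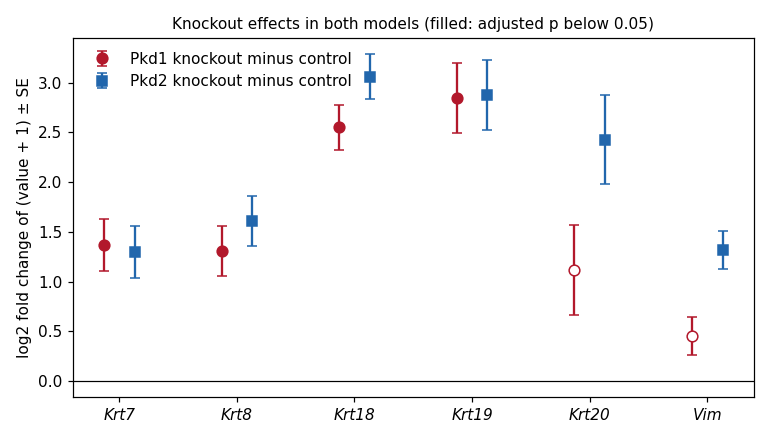
Log2 fold change of value + 1, knockout minus control, for each member with its standard error, Pkd1 model left of Pkd2 model; filled symbols passed an adjusted p of 0.05. Krt18 and Krt19 lie between 2.55 and 3.06 in both models, Krt7 and Krt8 between 1.30 and 1.61, and the open symbols are Krt20 and Vim in the Pkd1 model.

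The authors' deposited table gives its log2 values as control minus knockout. For Krt18 the authors' deposited table has -2.62 in the Pkd1 model and -3.23 in the Pkd2 model, and for Krt19 -2.98 and -3.26. For Krt20 the authors' deposited table has -2.57 (adjusted p = 3.81e-07) and -4.55 (adjusted p = 8.37e-20), larger than the values on the log2(value + 1) scale. Vim had -0.46 (adjusted p = 0.613) and -1.33 (adjusted p = 0.00517) in the authors' deposited table, which therefore also called it in the Pkd2 model only. Krt7 (-1.38 and -1.37) and Krt8 (-1.33 and -1.72) had adjusted p below 0.05 in both models in the authors' deposited table.

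The difference between the knockout effects, Pkd1 minus Pkd2, was tested in the same fit. Of 14637 genes 0.00683%, a single gene, was called, and 0 of the 6 members. At an unadjusted p below 0.05 there were 1207 genes, and 1 member, Vim, with a difference of -0.86 ± 0.27 (adjusted p = 0.373). Krt20 differed by -1.31 ± 0.64 (adjusted p = 0.684), Krt18 by -0.51 ± 0.32 (0.829) and Krt8 by -0.30 ± 0.36 (0.981), while Krt7 (0.07 ± 0.37, adjusted p = 0.997) and Krt19 (-0.03 ± 0.50, adjusted p = 0.999) were near 0. edgeR and DESeq2 on recovered reads also called 0 members. Without Pkd2 knockout replicate 1, the difference of Krt20 was -2.18 and passed the test (adjusted p = 0.0240), and without Pkd2 knockout replicate 2 it was -0.44. With 2 libraries a group, a larger effect on Vim or Krt20 in either model is therefore not shown.

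Control kidneys of day 20 (Pkd2 model) were set against those of day 10 (Pkd1 model). In this comparison age and floxed gene change together, and its libraries also serve as controls above. Sex-linked RNA differed as well. Xist was 346 and 350 in day 20 controls, against 0.221 and 416 in day 10 controls, the first of which had Y-linked 155. With the Y-linked values as a term, 513 genes and 2 members were called lower, against 1063 genes without it. Vim was lower at day 20, with 41.6 and 51.5 in day 20 controls against 130.7 and 115.8 in day 10 controls (log2 difference -1.39 ± 0.19, adjusted p = 0.00330). Krt18 was lower too, with 9.20 and 7.02 at day 20 against 17.4 and 18.0 at day 10 (-1.05 ± 0.23, adjusted p = 0.0190). These 2 of 6 members compare with 7.26% of tested genes called lower. Krt8 (-0.50 ± 0.26, adjusted p = 0.248), Krt19 (-0.66 ± 0.35, adjusted p = 0.270), Krt7 (-0.03 ± 0.26) and Krt20 (-0.00 ± 0.45) were not called. The call of Krt18 was lost without the filter (adjusted p = 0.0537) and without each control library (0.107 without day 10 control 1, 0.0938 without day 10 control 2, 0.0669 without day 20 control 1 and 0.153 without day 20 control 2). Krt8 was called when either Pkd2 knockout library was left out of the shared fit (adjusted p = 0.0446 without replicate 1 and 0.0450 without replicate 2).

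Partners of a filament can be compared per length of mRNA. Levels were divided by the longest protein-coding transcript of each gene, from 1.44 kb for Krt18 to 4.09 kb for Krt7. The ratio of Krt8 to Krt18 per kilobase was 0.505 and 0.542 in Pkd1 knockouts, against 1.36 and 1.19 in Pkd1 controls. In Pkd2 knockouts it was 0.613 and 0.715, against 1.70 and 2.23 in Pkd2 controls. The type I gene thus exceeded its partner in all 4 knockout libraries and lay below it in all 4 controls, since both rose and Krt18 rose further. Krt7 over Krt19 moved the same way, with 1.00 and 0.781 in Pkd1 knockouts and 2.48 and 3.03 in Pkd1 controls, and with 1.49 and 1.13 in Pkd2 knockouts and 4.0 and 5.34 in Pkd2 controls. This second ratio depends on which Krt7 transcripts are present. Over the union of all annotated exons it was 0.534 to 1.02 in the 4 knockouts and 1.69 to 3.65 in the 4 controls. The ratios are descriptions, without a test.

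**Figure D3:**
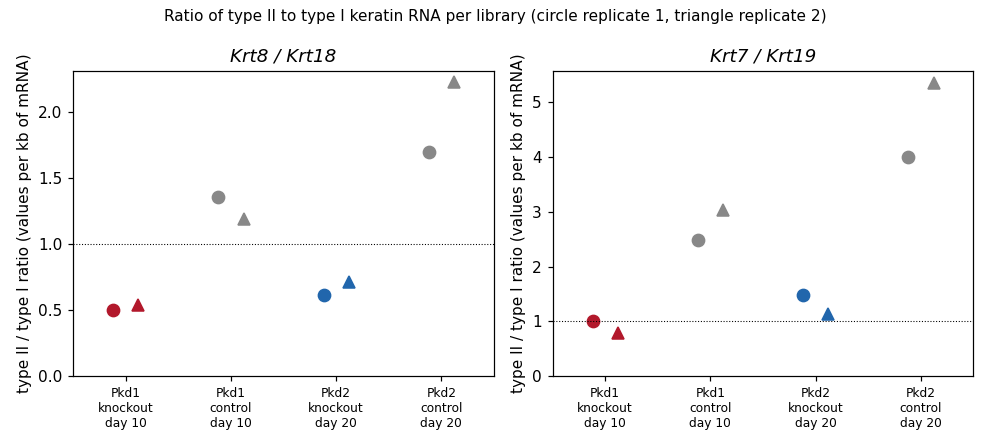
Ratio of type II to type I keratin RNA per library, each value first divided by mRNA length in kb, for Krt8 over Krt18 and Krt7 over Krt19; knockouts are left of controls and the dotted line marks a ratio of 1. All 4 knockout libraries lie below all 4 control libraries in both panels.

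Summed per kilobase, the 5 keratins reached 180 and 188 in Pkd1 knockouts, against 48.0 and 41.9 in Pkd1 controls. In Pkd2 knockouts the sum was 106 and 191, against 32.0 and 30.4 in Pkd2 controls. Krt18 made up 41.5% and 40.6% of the keratin sum in Pkd1 knockouts and 25.2% and 29.9% in Pkd1 controls, and 39.0% and 33.9% in Pkd2 knockouts and 20.0% and 16.0% in Pkd2 controls. It was the leading keratin per kilobase in all 4 knockout libraries. In the controls Krt8 held 34.0% to 35.8% of the sum. Krt7 held 25.7% and 28.7% in Pkd1 controls and 36.3% and 40.3% in Pkd2 controls, a place that depends on its transcript length. Krt20 stayed a minor part, at 0.456% to 3.24% of the keratin sum in knockouts and 0.310% to 0.673% in controls. By mRNA length, Vim exceeded the keratin sum in Pkd1 controls, where keratins over Vim were 0.805 and 0.793, against 2.14 and 2.67 in Pkd1 knockouts. In the Pkd2 model that ratio was 2.12 and 3.37 in knockouts and 1.69 and 1.30 in controls. The ratio depends on the length taken for Vim, 2.19 kb as mRNA and 4.74 kb over all annotated exons. Over all exons, Vim had 27.6 and 24.4 per kilobase in Pkd1 controls, Krt8 16.5 and 14.9, and Krt18 12.1 and 12.5. By that length Vim lay below the keratin sum in Pkd1 controls.

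Beside the members, 31 other keratin genes were listed in the kidney table and 7 passed the filter. A further 4 keratins, Krt80, Krt14, Krt23 and Krt4, were called higher in both models. Like Krt20, they reached a value of 1 in knockouts only, so they passed the filter through groups in which they are high. Krt4 did so in Pkd2 knockouts alone (1.01 and 1.41), with 0.990 and 0.720 in Pkd1 knockouts. The filter thus favoured a difference for these genes, though it did not fix one in each model. Krt80, a type II keratin, had 4.20 and 5.82 in Pkd1 knockouts and 0.796 and 0.503 in Pkd1 controls, and 2.66 and 3.93 in Pkd2 knockouts and 0.624 and 0.816 in Pkd2 controls. Its log2 fold changes were 1.86 ± 0.22 (Pkd1, adjusted p = 0.00237) and 1.31 ± 0.22 (Pkd2, adjusted p = 0.00566). Krt14, the type I keratin of basal cells in stratified epithelium, rose by 1.18 ± 0.18 in both (adjusted p = 0.00608 and 0.00422). Krt23, a type I keratin, rose by 0.94 ± 0.23 and 1.01 ± 0.23 (adjusted p = 0.0345 and 0.0186), and Krt4, a type II keratin of mucosal lining, by 0.66 ± 0.17 and 1.01 ± 0.17 (adjusted p = 0.0420 and 0.00564). Krt5, the usual partner of Krt14, did not pass (0.54 ± 0.27 and 0.58 ± 0.27, adjusted p = 0.239 and 0.168). Krt10 had -0.10 and -0.07, and Krt15 -0.13 and 0.81 (adjusted p = 0.0643 in the Pkd2 model), without a call. Krt17 did not reach the filter, with 1.44 and 0.444 in Pkd1 knockouts against 0.0246 and 0 in their controls, and 0.701 and 0.994 in Pkd2 knockouts against 0 in both controls. It is named here after its values were seen. A further 22 keratin genes stayed under 0.1 in every library.

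Of 6 other intermediate filament genes tested, 1 rose in Pkd1 knockouts (Synm, which encodes synemin, 0.84 ± 0.21, adjusted p = 0.0368) and 2 rose in Pkd2 knockouts (the nuclear lamin gene Lmnb1, 0.97 ± 0.23, adjusted p = 0.0224, and the nestin gene Nes, 0.75 ± 0.19, adjusted p = 0.0305). The median log2 fold change of these 6 was 0.31 in the Pkd1 model and 0.54 in the Pkd2 model. Of 15 tested genes for desmosomes and for proteins that tie filaments to them, 3 were higher and 0 lower in Pkd1 knockouts, and 2 were higher and 1 lower in Pkd2 knockouts. Dsc2, a desmosomal cadherin, rose in both (1.45 ± 0.29 and 1.67 ± 0.29, adjusted p = 0.0172 and 0.00682), as did Ppl, which encodes the linker periplakin (1.74 ± 0.32 and 1.47 ± 0.32, adjusted p = 0.0122 and 0.0165). Dsp, for desmoplakin, which anchors keratin filaments, rose in Pkd1 knockouts (1.68 ± 0.30, adjusted p = 0.0107) and had 0.95 ± 0.30 in Pkd2 knockouts (adjusted p = 0.0603). Pkp4 fell in Pkd2 knockouts (-0.65 ± 0.18, adjusted p = 0.0412).

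Among 16 genes of epithelial junctions and their regulators, 6 rose in Pkd1 knockouts and 3 in Pkd2 knockouts, and 0 fell in either. The claudin gene Cldn4 rose by 2.02 ± 0.26 and 2.60 ± 0.26 (adjusted p = 0.00316 and 0.000760), Cldn7 by 0.82 ± 0.19 and 1.05 ± 0.19 (adjusted p = 0.0308 and 0.00844), and Elf3, an epithelial transcription factor, by 2.09 ± 0.33 and 2.07 ± 0.33 (adjusted p = 0.00659 and 0.00481). Of 13 tested genes linked to mesenchymal transition, 3 rose and 1 fell in Pkd1 knockouts, and 4 rose and 1 fell in Pkd2 knockouts. Acta2, for smooth muscle actin, rose by 2.08 ± 0.21 and 2.40 ± 0.21 (adjusted p = 0.00144 and 0.000467). Tgfbi had 0.35 ± 0.17 in Pkd1 knockouts (adjusted p = 0.218) and rose by 1.61 ± 0.17 in Pkd2 knockouts (adjusted p = 0.000973). Cdh2, the N-cadherin gene, which proximal tubules express, fell by 0.82 ± 0.16 in Pkd1 knockouts and by 0.81 ± 0.16 in Pkd2 knockouts (adjusted p = 0.0163 and 0.0120). The median log2 fold change was 0.70 and 0.39 for the epithelial list and 0.05 and 0.51 for the mesenchymal list, Pkd1 model first.

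**Figure D4:**
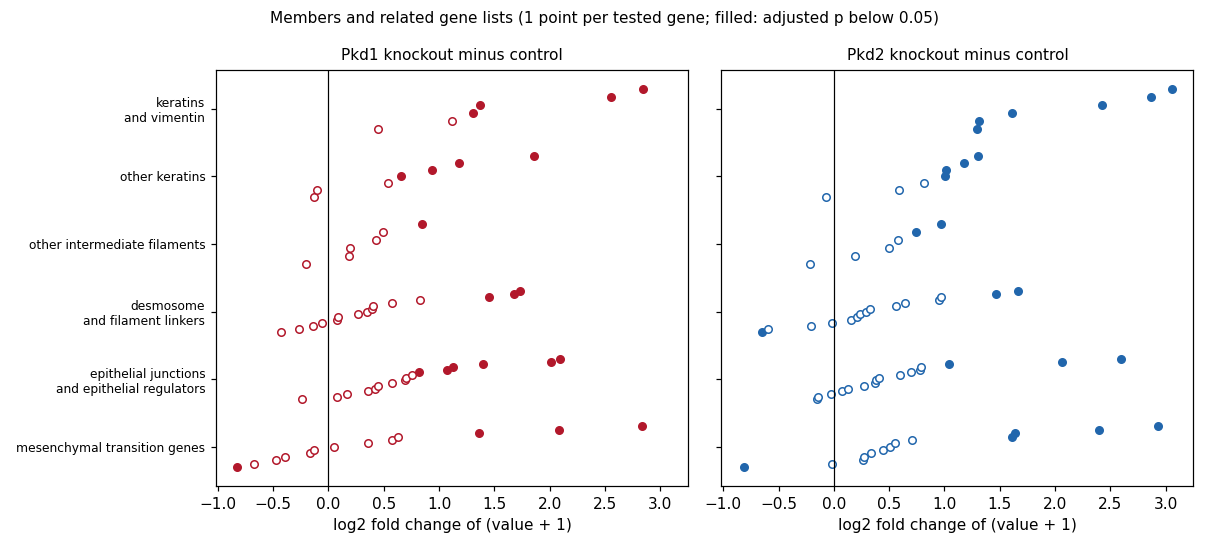
Log2 fold change of value + 1, knockout minus control, of every tested gene in 5 related lists beside the 6 members, Pkd1 model left and Pkd2 model right; filled points passed an adjusted p of 0.05. All 6 members lie above 0 in both models, while the other lists spread to both sides of 0.

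Markers of several cell types moved with the members. The summed value of 12 principal cell markers of the collecting duct, the segment best known for these keratins, was 332 and 538 in Pkd1 knockouts against 203 and 173 in Pkd1 controls, and 327 and 392 in Pkd2 knockouts against 288 and 248 in Pkd2 controls. Of these markers 5 rose in Pkd1 knockouts and 6 in Pkd2 knockouts, and 0 fell. Urothelial markers summed to 33.3 and 26.9 in Pkd1 knockouts against 21.3 and 15.5 in Pkd1 controls, and to 31.5 and 24.6 in Pkd2 knockouts against 17.4 and 13.8 in Pkd2 controls. Of the 8 tested, 1 rose in each model, Upk3b in the Pkd1 model and Sprr1a in the Pkd2 model, and Sprr2b stayed under 0.1 in every library. Proximal tubule markers, of which 9 of 10 fell in Pkd1 knockouts and 8 of 10 in Pkd2 knockouts, summed to 832 and 1077 in Pkd1 knockouts against 2961 and 3318 in controls, and to 3612 and 1768 in Pkd2 knockouts against 6441 and 6896. Markers of the distal nephron (thick ascending limb, distal tubule) fell for 7 of 8 genes in each model. They summed to 347 and 538 in Pkd1 knockouts against 1217 and 980 in Pkd1 controls, and to 1077 and 921 in Pkd2 knockouts against 4435 and 4421 in Pkd2 controls. Intercalated cell markers fell for 5 of 8 genes in Pkd1 knockouts and 4 in Pkd2 knockouts, and 1 rose in each. Markers of parietal epithelium, the simple epithelium around the glomerulus, summed to 136 and 145 in Pkd1 knockouts against 102 and 82.9 in Pkd1 controls, and to 138 and 189 in Pkd2 knockouts against 107 and 98.1 in Pkd2 controls. Of these 5 markers 2 were called higher in Pkd1 knockouts, and 3 higher and 1 lower in Pkd2 knockouts. Those higher in both models were Cd44 and Cd9, while Cldn1 was higher and Pax2 lower in Pkd2 knockouts. Cd44 also counts among the tubule injury genes below. Fewer cells of a type and less RNA per cell cannot be told apart in whole kidneys, and the part of these shifts in the keratin values was not tested.

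For Vim, the cell types known to express it were set beside it. Macrophage markers, all 10 of which rose in both models, summed to 156 and 150 in Pkd1 knockouts against 54.3 and 46.9 in Pkd1 controls, and to 239 and 289 in Pkd2 knockouts against 51 and 52 in Pkd2 controls. Smooth muscle markers summed to 621 and 637 in Pkd1 knockouts against 136 and 116 in controls, and to 172 and 136 in Pkd2 knockouts against 32.3 and 48.2, with 5 of 6 and 4 of 6 called higher. Fibroblast and pericyte markers summed to 2552 and 2108 in Pkd1 knockouts against 1553 and 1043. In Pkd2 knockouts they summed to 1531 and 1763 against 757 and 827. Of the 10, 2 and 3 were called higher and 0 lower, with median log2 fold changes of 0.23 and 0.68. In Pkd1 knockouts single fibroblast markers went both ways, from Postn at 2.10 (limma, adjusted p = 0.00110) to Lum at -0.88 (adjusted p = 0.201). Endothelial markers, with 4 of 9 lower in Pkd1 knockouts and 1 of 9 in Pkd2 knockouts, summed to 374 and 468 in Pkd1 knockouts against 635 and 545, and to 516 and 395 in Pkd2 knockouts against 611 and 533. Podocyte markers, with 6 of 8 and 3 of 8 lower, summed to 220 and 211 in Pkd1 knockouts against 324 and 317, and to 152 and 155 in Pkd2 knockouts against 183 and 190. Every marker in these 5 lists reached 0.1 in at least 1 library. Acta2 counts in both the smooth muscle and the mesenchymal list. Vim was thus higher in Pkd2 knockouts beside higher macrophage, smooth muscle and fibroblast sums, and in Pkd1 knockouts, where it was not called, those sums were higher too. Their part in the level of Vim was not tested.

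**Figure D5:**
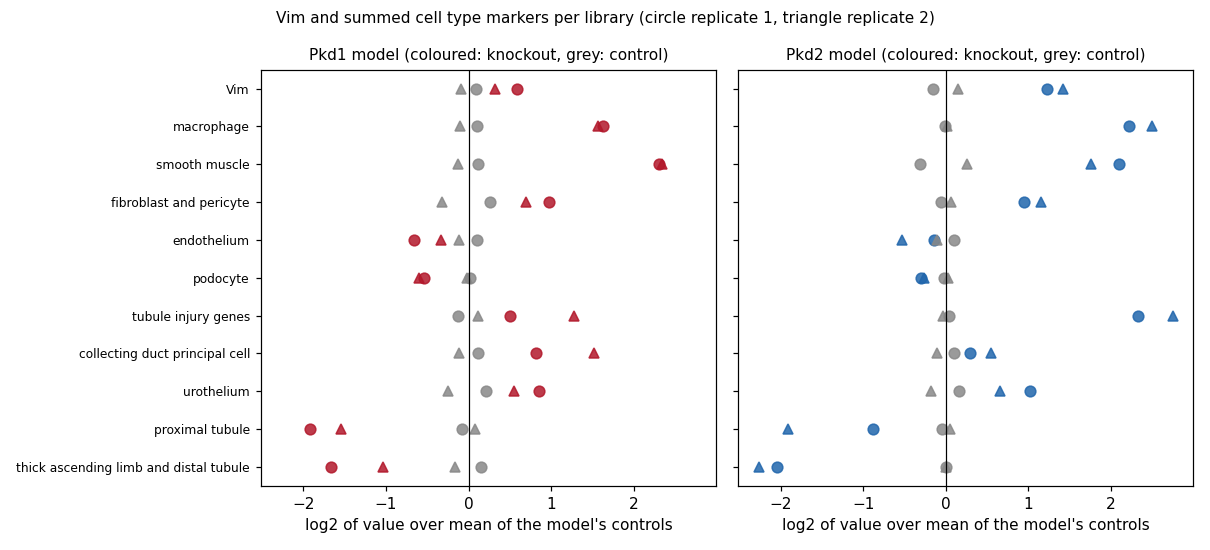
Vim and summed markers of 9 cell types or segments, with tubule injury genes, per library as log2 of the value over the mean of the same model's controls; coloured points are knockouts, grey points controls, circles replicate 1 and triangles replicate 2. In the Pkd2 model the macrophage and injury sums of both knockouts lie further to the right than Vim, while proximal and distal tubule sums lie to the left in both models.

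Of 13 tubule injury genes tested, 6 rose in Pkd1 knockouts and 11 in Pkd2 knockouts. Lcn2, a protein shed by injured tubules, rose by 3.77 ± 0.31 in Pkd1 knockouts (adjusted p = 0.000728) and by 6.01 ± 0.31 in Pkd2 knockouts (adjusted p = 7.72e-05). Havcr1, a receptor of injured proximal tubules, had 0.95 ± 0.42 in Pkd1 knockouts (adjusted p = 0.186) and rose by 5.77 ± 0.42 in Pkd2 knockouts (adjusted p = 0.000325). The difference between models was not called for any of the 13. The second Pkd2 knockout, which had the higher value of every member, also had the higher injury sum (9030 in replicate 1 and 12089 in replicate 2) and the lower proximal tubule sum. It was also the library with the smallest share of small structural RNA. The 2 Pkd2 knockouts differed in sex-linked RNA too, with Y-linked 169 and Xist 1.74 in replicate 1, and 0.0462 and 449 in replicate 2. The part of these in the spread between the Pkd2 knockouts was not tested.

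Genes with the most similar profile were found by the root mean square difference of log2(value + 1), centred on the mean of the 8 kidney libraries, among 9471 genes with a mean of at least 5. Krt8 was closest to Adamts1, which encodes a secreted protease, at 0.0590, the smallest distance of any member to a gene. Adamts1 had 131 and 147 in Pkd1 knockouts and 60.0 and 52.7 in Pkd1 controls, and 83.8 and 151 in Pkd2 knockouts and 35.4 and 37.7 in Pkd2 controls. Next to Krt8 came Ugcg, Map3k1 and Fosl2 (0.127 to 0.153). Krt7 was closest to Itga3, Iqgap1, Lama3 and Sgpp2 (0.124 to 0.149), Itga3 and Lama3 being an integrin and a laminin chain of epithelial basement membrane adhesion. For Krt18 genes among the nearest were Cldn4, Nipal1 and Pdpn (0.303 to 0.390), and for Krt19 Sulf1, Mal2 and Cldn4 (0.273 to 0.367). Krt20 lay nearest to Nfkbiz, Plek, Coro2a and Lcp1 (0.312 to 0.383), of which Plek and Lcp1 are best known from blood cells. Vim lay nearest to Prnd, Kctd15, Rcn1 and Myh10 (0.102 to 0.147). Between members, Krt7 and Krt8 were 0.202 apart and Krt18 and Krt19 0.252, so that each type II gene was closest to the other type II gene and each of these type I genes to the other. Krt20 was 0.606 from its nearest member, Krt7, and Vim 0.488 from Krt8. The profiles share their libraries and scaling, and the likeness is a description.

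In mIMCD-3 cells Vim was abundant and slightly higher after the Hoxb3os gapmer. It had scaled counts of 19057, 19460 and 19042 in Hoxb3os gapmer cells, against 17336 and 15212 in control gapmer cells, a mean of 19186 ± 237 (SD, n = 3) against 16274 ± 1502 (SD, n = 2). The 3 gapmer libraries were close together, the controls were further apart, and the groups did not overlap. The log2 fold change was 0.24 ± 0.05 (limma, adjusted p = 2.58e-05), and the authors' deposited table gives 0.22 (adjusted p = 2.79e-05), gapmer over control. Without control replicate 2 the value of Vim was 0.15 (adjusted p = 0.0112). This table holds only genes with an authors' adjusted p below 0.05, so that 44.4% of its genes were called higher, and a call of Vim within it adds nothing to its selection. Vim ranked 126 of the 2016 genes by mean control value.

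Of the 17 linker genes, 4 were in the cell table, with Jup, for plakoglobin, higher (0.18 ± 0.05, adjusted p = 0.000860) and Evpl (-0.47 ± 0.06, 6.50e-08), Dsc2 (-0.37 ± 0.07, 1.99e-05) and Ppl (-0.17 ± 0.05, 0.00126) lower in gapmer cells. Of the other intermediate filament genes 2 were there, with Nes higher (0.14 ± 0.05, adjusted p = 0.00447) and Lmnb1 lower (-0.32 ± 0.04, 6.91e-08). Of the epithelial junction genes, Cdh1, for E-cadherin (-0.42 ± 0.11, adjusted p = 0.000940), Ocln (-0.87 ± 0.17, 4.13e-05) and Ehf (-0.33 ± 0.09, 0.00121) were lower. Of the mesenchymal transition list, Tgfbi was lower (-1.12 ± 0.11, adjusted p = 2.83e-11) and Itgb6 higher (0.39 ± 0.09, 0.000166). Like Vim, these genes were listed because their authors' adjusted p was below 0.05, so their calls add nothing to that selection. Of the 2016 genes listed for the cells, 895 were called higher and 1120 lower. Genes that the cell table did not hold were not analysed in the cells.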

How the data were processed

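Per the labels' protocols, Trizol RNA from 8 kidney and 5 cell samples went into TruSeq libraries. Samples were grouped by genotype and age or by gapmer. Titles of Pkd2 knockouts bear the mark "(WT)", but genotype and description give a knockout and decided the group. Tools named in the submitters' processing notes are STAR 2.4.2a for both sets, RSEM 1.2.22, edgeR, Cufflinks 2.2.1 and FastQC 0.11.2 for kidneys (mm10), and DESeq2 1.12.3, SAMtools 1.0 and Trimmomatic 0.32 for cells (GRCm38). What each did, the annotation and the strand setting are not given in the sources that were used.

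For kidneys, the authors deposited a signal per gene that reads as estimated counts scaled per library. Dividing by the value of 1 read gave whole numbers within 0.02 for 85.7% to 93.3% of values above 0, and these reads give the depth (least certain in Pkd1 control replicate 1). For cells, the authors deposited a signal of counts divided by size factors. The log2 fold changes and adjusted p-values deposited by the authors are named where used.

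Kidney genes reaching a value of 1 in 2 or more libraries were tested on log2(value + 1) with limma 3.58.1 (trend) in R 4.3.3, in 1 fit of 4 groups. The cells had their own fit. Calls needed a Benjamini-Hochberg adjusted p below 0.05 over all genes tested. The code was tested on simulated data. On recovered reads edgeR 4.0.16's quasi-likelihood test called 1534 genes (Pkd1) and 2382 (Pkd2), and DESeq2 1.42.0 2203 and 3036, against 1550 and 2587 by limma. Levels per kilobase use the longest protein-coding transcript of GENCODE M21, chosen over the union of all exons, which retained introns lengthen, after the values were seen. Where rows shared a gene name, the one with the highest sum was used.

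Named genes are the 6 members, every other keratin that passed the filter, up to 4 genes of each list with the smallest adjusted p over both models, and the 4 nearest profiles of each member; a result that these rules would name is not reported here. The members and lists were chosen with earlier results of these data known. The labels number replicates in each group without saying that equal numbers belong together. Alternatives were another pseudocount, no filter, quantile scaling, mitochondrial and small RNAs left out, each model alone, a Y-linked covariate, a replicate block, edgeR, DESeq2, and omission of each library, with a library left alone in its group taken to vary as the other groups do.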

Additional observations from a re-analysis of the deposited data

How the results depend on the processing

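Under the alternatives that omitted no single library, 2 to 5 members were called in the Pkd1 model, where 790 to 2491 genes were. In the Pkd2 model all 6 were called, where 1366 to 3658 genes were. The counts of 5 and 6 include Krt20, which passed the filter through knockouts only. Under all 17 alternatives every member kept a positive sign in both models. Without the filter, 790 genes and 2 members were called in the Pkd1 model and 1 member in the comparison of controls. A Y-linked covariate gave 2491 genes in the Pkd1 model and 1077 between controls, and each model alone gave 1366 genes in the Pkd2 model. The difference between models called 5 genes with a pseudocount of 0.1, 0 without the filter, 8 under quantile scaling, 22 without mitochondrial and small RNAs, 6 with the Y-linked covariate, 5 by edgeR and 184 by DESeq2. With the replicate block, 1231, 2200, 0 and 1511 genes were called (Pkd1, Pkd2, difference, controls) and no count of members changed. Deviations of equal numbers correlated at -0.38 and -0.05 in the Pkd1 and Pkd2 models and at -0.21 between controls. With 2 libraries a group the sign depends on which is numbered 1. These values therefore do not decide whether libraries belong together. Leaving out 1 library gave 332 to 2487 genes in the Pkd1 model, 669 to 4328 in the Pkd2 model, 0 to 50 for the difference and 412 to 2571 between controls, with 2 to 5, 4 to 6, 0 to 1 and 1 to 3 members; the cause was not tested, beyond fewer samples. Values near 0 changed sign. The difference of Krt7 was -0.121 under quantile scaling, -0.0429 with the Y-linked covariate, -0.00309 by DESeq2 and -0.33 to 0.47 leaving out 1 library. That of Krt8 ran from -0.73 to 0.13 and that of Krt19 from -0.61 to 0.55 in this way, and Krt19 had 0.0915 under quantile scaling. Between controls, Krt7 ran from -0.20 to 0.14 and Krt20 from -0.11 to 0.10 leaving out 1 library. Krt20 had 0.0782 under quantile scaling, 0.00320 without mitochondrial and small RNAs, 0.0245 by edgeR and 0.0290 by DESeq2. The largest shift came with the Y-linked covariate, where Krt7 had -0.384 and Krt20 -1.02, neither of them called. Vim in the cells stayed called in all 8 alternatives, between 0.15 and 0.33. Krt20 rested on the fewest reads of the members, 10 to 35 in controls, and its Pkd2 knockouts lay far apart (2.86 and 11.9). Which of these limits Krt20 more was not tested, and 2 libraries a group limit every test.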
